A study of Mus musculus with 36 samples.

Results

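The fibroblast growth factor (FGF) receptors Fgfr1, Fgfr2, Fgfr3 and Fgfrl1 and the ligands Fgf1 and Fgf2 were followed across 36 RNA-seq libraries of mouse brain cells. These 6 genes were chosen by name among the 19000 genes with a value above 0. Rows of each library's transcript table were matched by position to genes of the mm10 assembly, and the deposited FPKM (fragments per kilobase of transcript and 1000000 mapped fragments) of a gene's transcripts were summed. The libraries came from C57/Bl6 mice, and their cells were labelled as astrocytes. They formed 18 groups of 2 libraries: populations Neg and A to E, each from olfactory bulb, cortex and brainstem. The labels do not say what the letters or Neg stand for, and they name no age, treatment or number of animals. Whether the 2 libraries of a group came from different animals is not stated, and the p-values measure the spread between libraries, which may be technical.

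FGF receptors are receptor tyrosine kinases at the cell surface. A secreted FGF binds the receptor together with heparan sulfate, the receptors pair, and the signal runs through docking proteins to the Ras and MAP kinase cascade, which in turn induces its own inhibitors of the Sprouty and Spred families. Fgfr3 is well known as a gene of astrocytes and their radial precursors, Fgfr1 is found in neural stem cells, neurons and glia, and Fgfr2 is known in glia including oligodendrocytes. Fgfrl1 binds FGF and heparin but lacks the kinase domain. Fgf1 and Fgf2 lack a classical secretion signal, and Fgf2 is a mitogen of neural progenitors and astrocytes in culture.

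All 6 genes reached 1 FPKM in at least 2 libraries and so entered the test, as did 13578 genes in all. The astrocyte label was checked against 10 marker genes. Their mean log2(FPKM + 1) lay between 6.21 and 6.86 in C and between 5.52 and 6.85 in B. It ran from 4.16 to 6.09 in A, 3.69 to 6.75 in D, 3.40 to 5.16 in E and 1.79 to 3.95 in Neg. No astrocyte marker was at 0 throughout a population. In Neg the mean of 7 markers of mature oligodendrocytes, at 4.90 to 5.86, was above that of the astrocyte markers. Neg was not alone in this: medians of the oligodendrocyte and astrocyte means were 5.08 and 3.23 in Neg and 5.14 and 4.31 in E. They were 5.43 and 4.87 in D, 5.94 and 5.85 in B, 5.26 and 5.35 in A and 5.53 and 6.60 in C. The mean of 6 markers of oligodendrocyte precursors lay between 2.89 and 3.70 in C, 2.80 and 3.96 in B, 0.45 and 1.39 in E and 0.27 and 2.29 in Neg. The mean of 5 markers of choroid plexus and ependyma ran from 1.54 to 6.00 in C, and that of 9 neuronal markers from 2.42 to 3.66. Log2(FPKM + 1) of Fgfr3 minus the astrocyte marker mean averaged -1.74 in C, -1.38 in B and -2.14 in A. In D, E and Neg it averaged -2.16, -2.76 and -1.89. For Fgfr1 and Fgfr2 this value was lowest in C, at -2.69 ± 0.61 and -2.21 ± 0.34 (SD). For Fgfr1 the mean in E, at -2.53 ± 1.01, lay within that spread. Fgfrl1 had its lowest in E, at -3.55, and Fgf1 and Fgf2 theirs in B, at -2.29 and -4.86. Such a value cannot fall below minus the marker mean, which leaves Neg, with the lowest marker means, the least room. The part of astrocyte, oligodendrocyte or other cell content in the results was not tested. The mean of 8 microglial markers was higher in B, at 5.65 to 6.76, than in C, at 2.84 to 5.48. The summed FPKM of a library, which is not fixed by this unit, ran from 87398 to 163132 in C, from 24130 to 63065 in Neg and from 23005 to 70447 in E. Replicate 1 of E was shallow in brainstem and in bulb, with a relative depth of 0.0695 and 0.315 against 1.16 or more elsewhere. Library numbers in the titles fall into separate series: the first holds 21 libraries, with every Neg and C library, and the second holds 15, with every D and E library. The libraries labelled brainstem D replicate 2 and cortex E replicate 2 had bulb-like levels of 5 genes of olfactory ensheathing glia, 8.02 and 7.05 against 1.71 to 5.61 in the other 22 cortex and brainstem libraries and 5.03 to 8.01 in the 12 bulb libraries, on the log2(FPKM + 1) scale.

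In the GENCODE annotation of GRCm38, Fgfr3 lies on chromosome 5 at 33721674 to 33737068, plus strand, and Fgfrl1 on the same chromosome at 108692382 to 108706924, plus strand. Fgfr1 lies on chromosome 8 at 25513654 to 25575718, plus strand, Fgfr2 on chromosome 7 at 130162451 to 133123350, minus strand, and Fgf2 on chromosome 3 at 37348346 to 37410108, plus strand. The deposited Fgfr3 transcripts begin at 33721724 or at 33722306. The latter is also the first base of exon 2 in 6 GENCODE transcripts of Fgfr3, so the shorter models begin at an exon that the longer ones share. RefSeq (GRCm38.p6) gives the 250 bases upstream of the first Fgfr3 start and of a Fgfrl1 start that lies within the GENCODE span of that gene; these are the receptors with the largest differences between C and the other lettered populations. The windows are given 5′ to 3′ with GGGCGG, searched on both strands (CCGCCC on the other), in capitals.
Fgfr3, chr5:33721474-33721723: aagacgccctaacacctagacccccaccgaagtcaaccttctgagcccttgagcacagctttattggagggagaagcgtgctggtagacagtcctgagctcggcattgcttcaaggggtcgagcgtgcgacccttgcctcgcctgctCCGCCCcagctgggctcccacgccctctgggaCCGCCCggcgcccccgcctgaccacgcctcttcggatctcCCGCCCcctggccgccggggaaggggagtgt
Fgfrl1, chr5:108693979-108694228: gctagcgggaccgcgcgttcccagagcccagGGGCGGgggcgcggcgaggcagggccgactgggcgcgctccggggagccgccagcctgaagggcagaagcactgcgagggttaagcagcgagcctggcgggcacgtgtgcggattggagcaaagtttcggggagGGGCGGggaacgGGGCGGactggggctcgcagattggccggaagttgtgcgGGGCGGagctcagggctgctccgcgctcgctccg
They hold GGGCGG 3 and 4 times, and 32.7% of 32851 windows of this length hold it at least once. Their GC content was 66.8% and 73.6%, against a median of 52.4%. Neither holds TATAAA, found in 12.4% of windows. The Fgf2 window holds GGGCGG once, and a Fgfr2 window, with a GC content of 44%, holds none. The window upstream of the second Fgfr3 start, 33722306, has a GC content of 72.8% and holds GGGCGG 2 times. In the 6 GENCODE transcripts where this start opens exon 2, the bases just before it are intron.

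The split of Fgfr3 between its starts was uneven and unstable. The first start had no FPKM in 22 of 36 libraries, among them all 6 of Neg. In C it took between 0% and 31.4% of the gene's FPKM, with a median of 24.4%. In cortex B replicate 1 it took 83.9% and in cortex B replicate 2 it took 17.4%, while the summed level of Fgfr3 was 40.6 and 44.7 FPKM. Such a split is an estimate that rests on the exon upstream of the shared ones, and the levels below are sums over transcripts. The deposited 95% interval of the leading Fgfr3 transcript had a median half-width of 8.10% of its value in C and of 118% in brainstem E replicate 1.

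Fgfr3, the receptor of astrocytes, was highest in C and B. In C it measured 23.2 and 14.2 FPKM in olfactory bulb, 38.4 and 45.9 in cortex, and 24.1 and 29.7 in brainstem. In B it measured 12.9 and 13.6 in olfactory bulb, 40.6 and 44.7 in cortex, and 23.8 and 19.1 in brainstem. Both populations thus had the same order of regions, with cortex highest and bulb lowest, and overlapped. Means were 29.3 ± 11.4 FPKM in C, 25.8 ± 13.7 in B, 9.40 ± 10.2 in D, 9.17 ± 6.03 in A, 2.15 ± 1.75 in E and 1.33 ± 0.67 in Neg (SD, n = 6 each). In D the mean rested on cortex replicate 1 at 28.9 FPKM, while cortex replicate 2 stood at 0.65. Cortex D replicate 2 had 2999 genes at 1 FPKM and a summed FPKM of 41324, against 8255 and 148661 in replicate 1. Every Neg library, at 0.61 to 2.31 FPKM, lay below every C library, and 6 of the 24 libraries of A, B, D and E reached the lowest C value. With every library rescaled to the median summed FPKM, Neg still lay below C, at 2.05 to 3.72 against 13.4 to 30.4. How many of all genes separate Neg from C in this way was not counted.

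Fgfr1 and Fgfr2 followed other orders. Fgfr1 measured 24.2 and 18.5 FPKM in olfactory bulb C, 15.1 and 17.1 in cortex C, and 10.7 and 5.16 in brainstem C. Bulb was thus highest in C for Fgfr1 and lowest for Fgfr3. Population means of Fgfr1 were 15.1 ± 6.57 FPKM in C, 14.3 ± 8.40 in B, 7.56 ± 4.13 in A and 7.51 ± 4.04 in D (SD, n = 6 each). Medians were 2.65 in E and 1.37 in Neg, where 1 library each was listed at 0. Fgfr2 was the most even of the 6 genes in C, at 17.1 and 22.1 FPKM in bulb, 21.3 and 20.8 in cortex, and 19.6 and 17.1 in brainstem. Its means were 19.9 ± 14.4 in D, 19.7 ± 6.50 in B, 19.6 ± 2.14 in C, 11.9 ± 2.05 in A, 9.60 ± 7.65 in E and 5.55 ± 4.30 in Neg. The wide spread in D came from cortex D, at 27.5 and 45.7 FPKM, against 7.01 to 14.0 in bulb and brainstem D. The 45.7 was that of replicate 2, the library with 2999 genes at 1 FPKM. For Fgfr2 the ranges of C and A did not overlap on deposited FPKM, while all other neighbours in the population orders of the 6 genes overlapped. After rescaling to the median summed FPKM, the range of Fgfr2 in C lay within that in A. The share of all genes that separate C from A was not counted.

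Fgfrl1, the receptor without a kinase, had the lowest mean of the 4 receptors in C, per length. It measured 10.1 and 2.79 FPKM in bulb C, 10.6 and 12.6 in cortex C, and 8.78 and 8.41 in brainstem C. Bulb C replicate 2 was therefore below the B libraries, which ran from 3.12 to 11.8, while the other C libraries lay within or above them. Values ran from 0.12 to 7.06 in A and from 0.48 to 5.37 in D. Fgfrl1 was listed at 0 in 3 libraries of Neg and 2 of E, and elsewhere in those populations it reached 5.15 and 2.44. Fgfr4, the remaining receptor with a kinase, did not exceed 0.30 FPKM in any library and was not tested.

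Of the ligands, Fgf1 (chromosome 18, 38838673 to 38929472, minus strand) was present in every library and Fgf2 was sparse. Fgf1 measured 62.4 and 35.5 FPKM in bulb C, 21.0 and 28.7 in cortex C, and 35.1 and 35.95 in brainstem C. Its means were 36.5 ± 14.0 in C, 25.6 ± 16.5 in E, 22.7 ± 11.7 in A, 21.8 ± 13.9 in D, 15.1 ± 7.51 in Neg and 12.8 ± 5.32 in B (SD, n = 6 each). Population B, second to C for Fgfr1, Fgfr3 and Fgfrl1, was thus last for Fgf1. Its highest library, at 19.6, lay below the lowest C library, at 21.0. After rescaling to the median summed FPKM these values were 12.7 and 14.0. The share of all genes that separate B from C was not counted. Fgf2 measured 4.96 and 0.21 FPKM in bulb C, 0.62 and 11.8 in cortex C, and 7.20 and 11.3 in brainstem C. The 2 libraries of bulb C and of cortex C thus stood far apart. Population medians of Fgf2 were 6.08 in C, 2.23 in D, 1.98 in A, 1.77 in B and 0 in E and Neg. Fgf2 was listed at 0 in 12 of 36 libraries, none of them C.

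**Figure D1:**
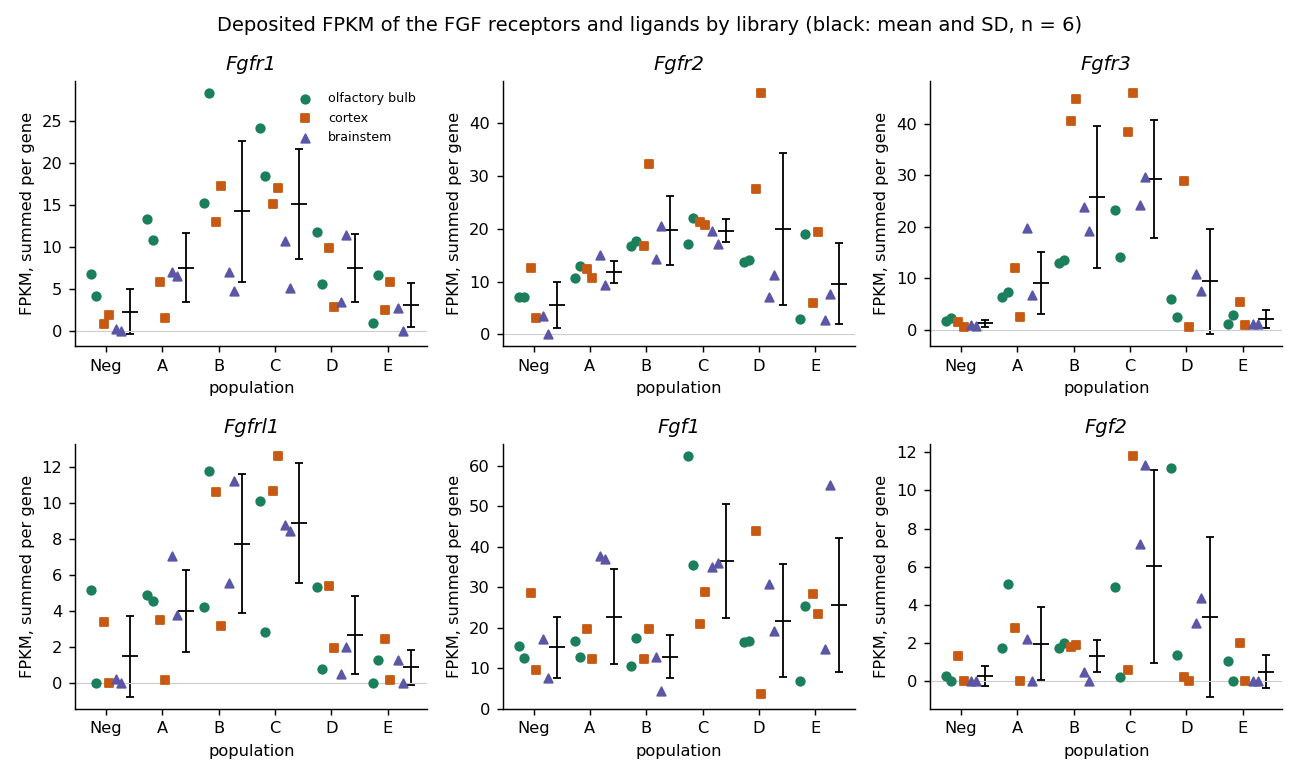
Summed FPKM of each gene (vertical axis) in every library by population (horizontal axis), with a point for each library coloured by region and the mean and SD of 6 libraries in black. Fgfr3 reaches 45.9 in C and 44.7 in B and stays at or under 2.31 in Neg, while Fgf1 has its lowest mean in B, at 12.8.

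C was compared with the mean of A, B, D and E by limma, a linear model with moderated variances, on log2(FPKM + 1), and a gene was called at a Benjamini-Hochberg adjusted p under 0.05 over the genes tested. Fgfr3 was higher in C by 1.82 ± 0.40 (log2 difference ± SE, 95% interval 1.00 to 2.64, limma adjusted p = 0.0148). Fgfrl1 was higher by 1.34 ± 0.41 (0.49 to 2.19, limma adjusted p = 0.0461). These were the 2 of 6 members called, and 7.52% of all genes were called, with a median difference of 0.39 over all genes. Of those called genes 1020 were higher in C and 1 was lower. Fgf2 differed by 1.21 ± 0.40 and Fgfr1 by 1.05 ± 0.35, both with limma adjusted p = 0.0589. Fgf1 differed by 0.95 ± 0.39 (adjusted p = 0.113) and Fgfr2 by 0.56 ± 0.36 (adjusted p = 0.308). By region, Fgfr3 differed by 1.59 ± 0.70 in bulb, 2.20 ± 0.70 in cortex and 1.65 ± 0.70 in brainstem, and Fgf2 by -0.20 ± 0.70, 1.33 ± 0.70 and 2.49 ± 0.70. A moderated F test of whether population differences depend on region called none of the 6 genes, none of them at an unadjusted p under 0.05 either, and 0.0147% of all genes.

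The calls in C depended on the scale. When every library was rescaled to the median summed FPKM of 90712, the difference of Fgfr3 became 1.23 (limma adjusted p = 0.210), that of Fgfrl1 0.89 (adjusted p = 0.604) and that of Fgfr2 -0.09 (adjusted p = 0.980), and no member was called. With quantile normalization Fgfr3 stood at 1.22 (adjusted p = 0.168), and with the number series added to the model at 1.07 (adjusted p = 0.979). Within the first number series, which sets C against A and B alone, it stood at 0.67 (adjusted p = 0.328); the second series has no C library. Fgfrl1 lost its call in 18 of 36 fits without 1 library, among them those without bulb C replicate 1 (1.08, limma adjusted p = 0.226) or either library of cortex or brainstem C, and in 9 of 12 other settings. Without olfactory bulb C replicate 1 the limma adjusted p of Fgfr3 was 0.1001, without brainstem C replicate 1 it was 0.0519, and it stayed under 0.05 without any other single library. Without the libraries labelled brainstem D replicate 2 and cortex E replicate 2 the difference of Fgfr3 was 1.73 (adjusted p = 0.0199). Fewer cells that express a gene and less RNA per cell cannot be told apart in these bulk libraries.

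**Figure D2:**
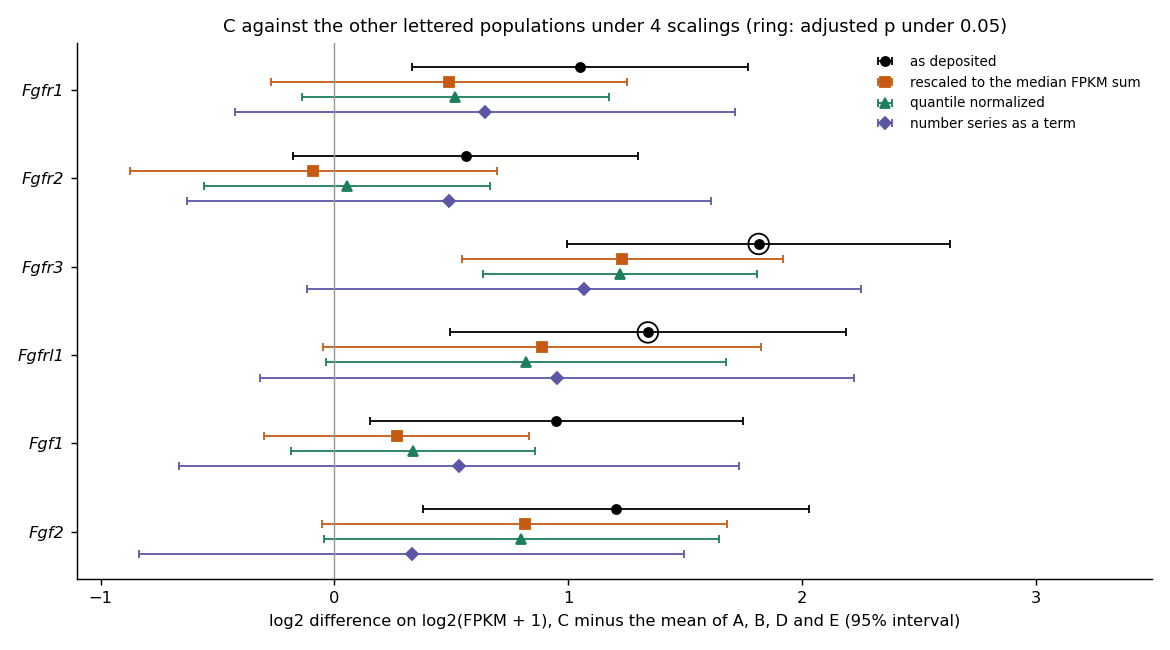
Log2 difference between C and the mean of A, B, D and E (horizontal axis) with its 95% interval for each gene, on deposited FPKM and under 3 other scalings or terms. Rings mark adjusted p under 0.05, which Fgfr3 (1.82) and Fgfrl1 (1.34) reach on deposited FPKM. Every gene moves toward 0 under the others, and Fgfr2 turns slightly negative after rescaling to the median sum.

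C was also set against single populations, in comparisons that share the C libraries. Against Neg, all 6 genes were higher in C, from 1.26 ± 0.49 for Fgf1 (limma adjusted p = 0.0427) to 3.66 ± 0.51 for Fgfr3, where 40.7% of all genes were called. Of those called genes 5504 were higher in C and 18 were lower. After rescaling only Fgfr3 was called there, and Fgf1 reversed to -0.40 (adjusted p = 0.575). Against E, 5 genes were called higher, all but Fgf1, where 43.8% of genes were called, 5937 higher in C and 10 lower. Fgfr3 differed from E by 3.32 ± 0.51 and Fgf1 by 0.66 ± 0.49 (limma adjusted p = 0.269). After rescaling 1 gene was called against E, and with the series term none. Against D, where 1.99% of genes were called (265 higher in C and 5 lower), Fgfr3 was the only member called, at 2.01 ± 0.51 (limma adjusted p = 0.0370). All C libraries are in the first number series and all D libraries in the second, and with the series term the difference was 0.82 (adjusted p = 0.940). After rescaling to the median sum it was 1.54 (adjusted p = 0.165). Without cortex D replicate 2 that difference was 1.32 (adjusted p = 0.181), and its adjusted p ran from 0.0707 to 0.132 without bulb C replicate 1, either library of cortex or brainstem C, bulb D replicate 2 or brainstem D replicate 2.

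Against A, where 0.00736% of genes were called, limma called no member. Fgfr1, Fgfr3 and Fgfrl1 had an unadjusted p under 0.05, as had 1661 of all 13578 genes. Fgfr3 differed from A by 1.69 ± 0.51 (limma adjusted p = 0.316). Against B, where 1.74% were called, limma again called none, and Fgf1 and Fgf2 had an unadjusted p under 0.05, as had 1601 of all genes. The receptors differed from B by 0.24 ± 0.51 for Fgfr3 (95% interval -0.80 to 1.28), 0.21 ± 0.52 for Fgfrl1, 0.14 ± 0.44 for Fgfr1 and 0.04 ± 0.46 for Fgfr2. Fgf1 differed from B by 1.48 ± 0.49 (limma adjusted p = 0.157), and it was called with quantile normalization, at 1.37, and without the 8 libraries that had fewer than 5000 genes at 1 FPKM. The mean of the 8 microglial markers was higher in each B library than in each C library, and its part in the levels of B was not tested.

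Between regions, over the 10 lettered libraries of each, limma called none of the 6 genes in any of 3 pairs, where 3.73% (bulb against cortex), 5.19% (bulb against brainstem) and 1.75% (cortex against brainstem) of all genes were called. Of the 6 only Fgfr1, between bulb and brainstem, had an unadjusted p under 0.05, as had 2611 of all 13578 genes in that pair. Fgfr1 ranged from 1.02 to 28.4 FPKM in bulb (median 12.6), from 1.60 to 17.3 in cortex (median 7.90) and from 0 to 11.5 in brainstem (median 5.87). The regions overlapped, and the difference of bulb from brainstem was 1.03 ± 0.34 (limma adjusted p = 0.0813). It passed the threshold without brainstem D replicate 2 (1.17, adjusted p = 0.0390), without that library and cortex E replicate 2 (1.17, adjusted p = 0.0366), without olfactory bulb E replicate 1 (1.22, adjusted p = 0.0253), and without brainstem E replicate 1 (1.22, adjusted p = 0.0388).

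Fgfr3 ranged from 1.21 to 23.2 FPKM in bulb (median 6.88), from 0.65 to 45.9 in cortex (median 20.4) and from 1.12 to 29.7 in brainstem (median 14.9). Bulb differed from cortex by -0.67 ± 0.39 (limma adjusted p = 0.441), by -1.09 (adjusted p = 0.0418) without cortex D replicate 2, and by -1.17 (adjusted p = 0.0170) within the first number series. Fgfr2 ranged from 2.98 to 22.1 FPKM in bulb, from 5.84 to 45.7 in cortex and from 2.68 to 20.4 in brainstem, and Fgf1 from 6.82 to 62.4, from 3.57 to 43.9 and from 4.51 to 55.1. Neither these genes nor Fgfrl1 and Fgf2 differed between regions past the threshold in the deposited values.

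**Figure D3:**
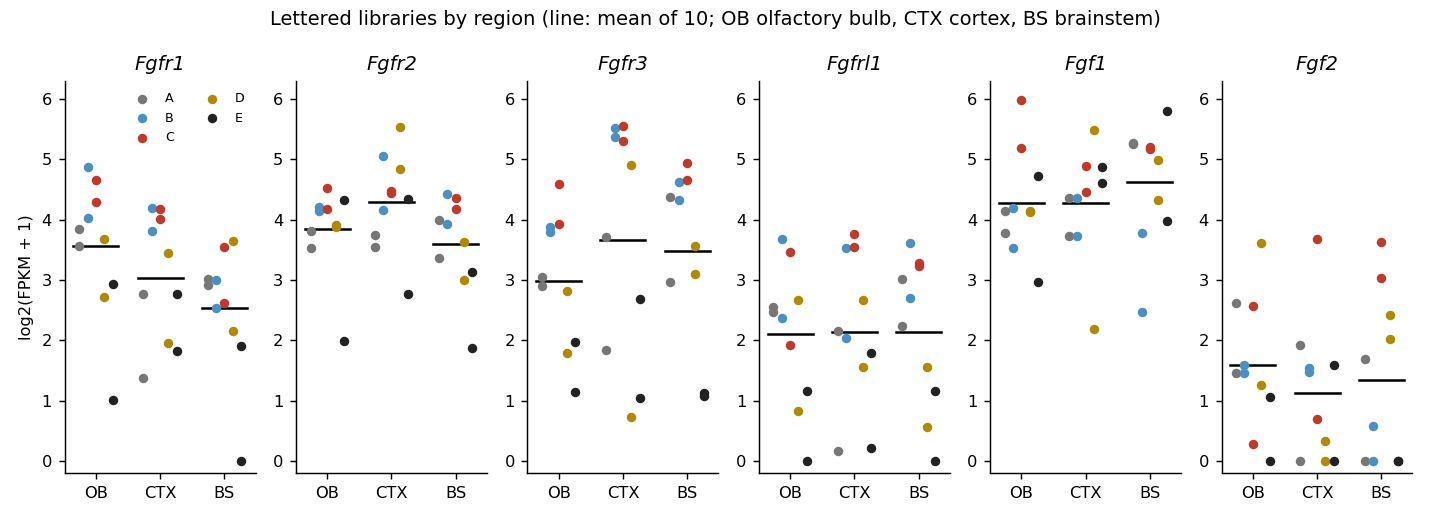
Log2(FPKM + 1) of each gene (vertical axis) in the lettered libraries of 3 regions (horizontal axis), coloured by population, with a line at the mean of 10 libraries. Fgfr1 steps down from bulb (median 12.6 FPKM) to brainstem (median 5.87 FPKM) with overlap, and a C library has the highest Fgfr3 value in each region.

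A ratio of 2 receptors within a library is free of the library's scale apart from the 0.1 added here to each FPKM, and FPKM makes it a ratio per length. The log2 ratio of Fgfr3 to Fgfr1 ran from -1.16 to 0.23 in bulb (median -0.75), from -2.36 to 1.63 in cortex (median 1.20) and from -1.17 to 3.60 in brainstem (median 1.55). Bulb was low and narrow; in cortex the 2 lowest values were those of D replicate 2 and E replicate 2, and the highest brainstem value was that of E replicate 2, where Fgfr1 was listed at 0 and the added 0.1 sets the ratio. Bulb averaged -0.64 ± 0.50 and brainstem 1.24 ± 1.44 (SD, n = 10 each), a difference of -1.87 (exact two-sided permutation test within populations, 7776 relabellings, p = 0.00257, adjusted p = 0.0175 over 8 ratio tests). Without brainstem E replicate 2 that difference was -1.40 (exact permutation adjusted p = 0.0360). Bulb differed from cortex, at 0.57 ± 1.48, by -1.20 (exact permutation p = 0.0324, adjusted p = 0.0864). Without the libraries labelled brainstem D replicate 2 and cortex E replicate 2 these differences were -2.09 and -1.55, both with an adjusted p of 0.00720 by the exact permutation test. Cortex and brainstem differed by -0.67 (exact permutation adjusted p = 0.380).

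The log2 ratio of Fgfr2 to Fgfr1 averaged 0.36 ± 0.80 in bulb, 1.41 ± 1.14 in cortex and 1.45 ± 1.83 in brainstem (SD, n = 10 each). Bulb was lower than cortex by 1.04 in the means of this ratio (exact permutation p = 0.00437, adjusted p = 0.0175), and the difference from brainstem was -1.08 (adjusted p = 0.146). The difference from cortex was no longer called without bulb A replicate 1, D replicate 1 or D replicate 2, where it was -0.98, -0.94 and -1.15. When only the transcript with the highest mean was used for each gene, this difference reversed to 0.35 and that of Fgfr3 to Fgfr1 between bulb and brainstem was -2.16 with an exact permutation adjusted p of 0.588. Without bulb E replicate 2 the latter was -1.74 and no longer passed. Between C and the other lettered populations the ratio of Fgfr3 to Fgfr1 differed by 0.76 (exact permutation adjusted p = 0.290) and that of Fgfr2 to Fgfr1 by -0.69 (adjusted p = 0.331).

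**Figure D4:**
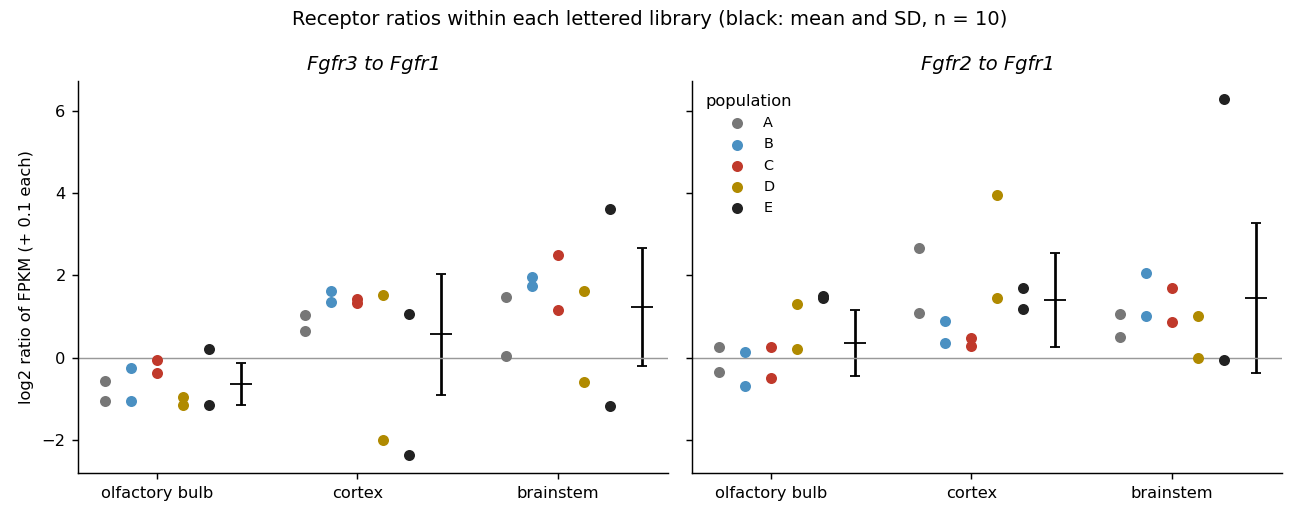
Log2 ratio of Fgfr3 to Fgfr1 and of Fgfr2 to Fgfr1 (vertical axis, 0.1 added to each FPKM) in every lettered library by region (horizontal axis), coloured by population, with the mean and SD of 10 libraries in black. The bulb libraries lie between -1.16 and 0.23 for Fgfr3 to Fgfr1, below the medians of cortex (1.20) and brainstem (1.55).

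The genes whose levels followed each member most closely were found by Pearson correlation over the 36 libraries on log2 of the rescaled FPKM plus 1. These are descriptions of libraries that share depth and RNA content as well as cell type. For Fgfr3 they were Aldoc (r = 0.89), Ckb (0.86), Gpr37l1 (0.83), Gpr146 (0.83) and Mlc1 (0.82); Aldoc is among the 10 astrocyte markers. For Fgfr1 they were Nav2 (0.80), Gpc6 (0.79), Mmd2 (0.78), Pcdh7 (0.78) and Astn1 (0.77), and for Fgfr2 Ddhd1 (0.79), Tgoln1 (0.76) and Ssr3 (0.76) came first. Fgf1 was closest to Sptbn1 (0.80) and Mapre1 (0.78), Fgfrl1 to Anapc2 (0.72) and Atp5g3 (0.70), and Fgf2 to Agpat1 (0.66). Among the members, Fgfr3 and Fgfrl1 (0.58) and Fgfr1 and Fgfrl1 (0.51) were the closest pairs, and Fgf1 was negative with every other member, from -0.42 with Fgfrl1 to -0.15 with Fgfr2. Correlations among members were taken on rescaled FPKM alone. On that scale the mean of Fgf1 was 49.4 in E, 34.8 in Neg and 26.1 in C, while on deposited FPKM it was highest in C, at 36.5. The part of the scale in the negative values was not tested.

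Other genes of the pathway were taken from 9 lists with 94 genes, of which 74 were tested, the members included. In C against the other lettered populations 5 of the 74 rose and none fell, beside 7.52% of all genes called: Fgfr3, Fgfrl1, Map2k2, Hras and Sulf1. Of all genes called there, 1020 were higher in C and 1 was lower, so this direction is not particular to the pathway. Sulf1, which removes sulfate groups from heparan sulfate, measured 11.95 ± 6.77 FPKM in C and 3.00 ± 3.19 in A, B, D and E (SD, n = 6 and 24), a log2 difference of 1.90 ± 0.44 (limma adjusted p = 0.0157). It was the only gene called of 14 for heparan sulfate synthesis and editing, whose median difference of 0.41 lay beside the 0.39 of all genes. Map2k2, a kinase of the MAP kinase cascade, differed by 1.25 ± 0.38 and Hras, a Ras protein, by 1.10 ± 0.31, the 2 called of 18 adaptors and kinases (median 0.39). After rescaling or quantile normalization none of the 74 was called.

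No gene was called in the remaining lists, where limma tested 11 feedback inhibitors (median 0.74), 11 heparan sulfate core proteins (median 0.59), 6 coreceptors and carriers (0.56), 3 ETS transcription factors (0.43) and 4 intracellular homologous factors (0.30). Spred1, an inhibitor of Ras signalling, measured 22.8 ± 6.36 FPKM in C and 13.4 ± 6.97 in the other lettered populations (difference 0.85 ± 0.32, adjusted p = 0.0892), and its relative Spred2 15.6 ± 11.99 and 10.5 ± 14.5. Etv5, an ETS factor induced by FGF, measured 11.7 ± 3.49 and 6.76 ± 6.93 FPKM (1.18 ± 0.40, adjusted p = 0.0597), while Etv1 measured 12.3 ± 5.71 and 13.2 ± 8.01. The core protein Sdc4 measured 76.4 ± 24.9 and 35.99 ± 23.5 FPKM (1.32 ± 0.46, adjusted p = 0.0662) and Sdc3 35.1 ± 20.5 and 18.2 ± 12.8. Of the homologous factors, Fgf11 measured 4.10 ± 2.68 and 3.92 ± 5.46 FPKM and Fgf13 4.33 ± 2.96 and 4.17 ± 5.24. Of 18 secreted ligands only Fgf1, Fgf2 and Fgf9 were tested.

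**Figure D5:**
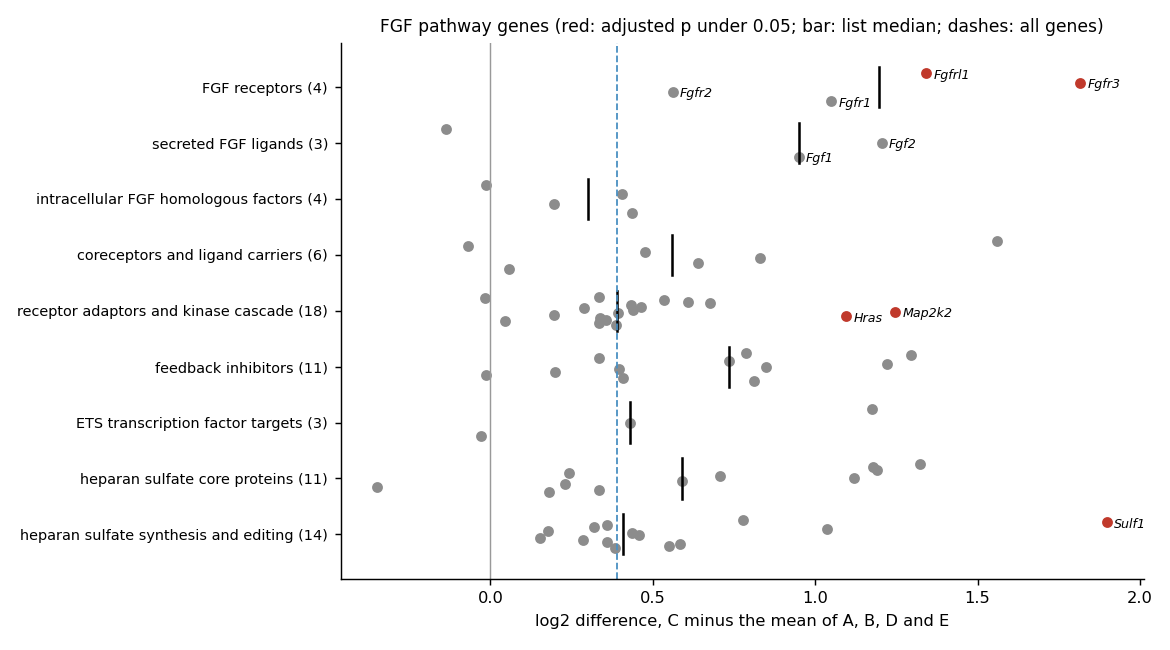
Log2 difference between C and the mean of A, B, D and E (horizontal axis) for each tested gene of 9 pathway lists (vertical axis, number tested in parentheses), with called genes in red, a bar at each list's median and dashes at the 0.39 of all genes. The 5 called genes lie at 1.10 or above, and the receptors and feedback inhibitors have medians of 1.20 and 0.74.

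Among the coreceptors, Kl, which encodes Klotho and is also a marker of choroid plexus, ran from 0.016 to 65.1 FPKM in C and averaged 5.88 ± 9.44 in the other lettered populations (difference 1.56 ± 0.50, limma adjusted p = 0.0518). Bulb differed from cortex by -2.82 ± 0.49 (limma adjusted p = 0.00045) and from brainstem by -2.80 ± 0.49 (adjusted p = 0.000622). Flrt1, a membrane protein that binds FGF receptors, measured 6.03 ± 3.27 FPKM in C and 3.25 ± 2.26 in the other lettered populations. Between bulb and cortex, where 3.73% of all genes were called, 2 of the 74 were, Kl and Flrt3 (0.96 ± 0.23 higher in bulb), and between bulb and brainstem, where 5.19% of all genes were called, 3 were, Kl, Fgf12 (1.42 ± 0.37 higher in bulb) and Hs2st1 (1.21 ± 0.31). Between cortex and brainstem limma called none of the 74, and 12 had an unadjusted p under 0.05, as had 1520 of all 13578.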

How the data were processed

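Gene expression was measured by RNA sequencing in 36 libraries. Per the submitters' processing notes, bcl2fastq 1.8.3, TopHat, Cufflinks and mm10 were used. The labels' protocols name a NuGEN Ovation V2 kit, which does not mark strand. The deposited files give each transcript's FPKM with its interval, as estimated by the authors, and a read coverage signal, per the file headers; read counts were not used here. Of 63241 transcripts a library, 83.1% were matched by position to a GENCODE gene with an overlap score of at least 0.5 and a lead of 0.1, and their FPKM were summed. Relative depth is the ratio of deposited coverage to FPKM. Genes with at least 1 FPKM in 2 libraries were tested on log2(FPKM + 1) with limma 3.58.1 (R 4.3.3), so that differences of low genes are understated, with 1 mean for each of 18 groups and 18 residual degrees of freedom. The fit was tested on simulated data. Ratios were tested by exact permutation. All members are named. Of each pathway list, up to 4 called genes with the largest difference are named, or else the 2 with the highest mean. For likeness, the 5 highest correlations are named for Fgfr1 and Fgfr3, and fewer of the 5 for the other members. Flrt3, Fgf12, Hs2st1 and Fgf9 were named after their values were seen. Alternatives were other scalings, pseudocounts, filters, array weights, number series and left-out libraries. The members and lists were chosen with earlier results of these data known.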

Additional observations from a re-analysis of the deposited data

Results flagged for a closer look

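In 36 groups of 6 libraries, a gene in a population each, 4 had a library far from the rest by Dixon's ratio. For draws from 1 normal distribution this happens in about 1 group in 20. The groups pool 3 regions of FPKM without a log scale, so that rate need not hold here, and the count of 4 cannot be set against it. Fgfr2 stood at 32.3 FPKM in cortex B replicate 2, with the next B library at 20.4. Fgfr3 stood at 28.9 FPKM in cortex D replicate 1, with the next D library at 10.8. Fgf1 stood at 62.4 FPKM in olfactory bulb C replicate 1, with the next C library at 35.95. Fgf2 stood at 1.32 FPKM in cortex Neg replicate 1, with the next Neg library at 0.30 and 4 Neg libraries at 0.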

How the results depend on the processing

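No paired analysis was possible because the labels give the libraries of a group no replicate numbers of their own. Fgfr3 stayed higher in C than in the other lettered populations under all 12 alternative settings run, with log2 differences from 0.67 to 2.07. Counts of called members in that comparison moved from 2 to 0 after rescaling to the median summed FPKM, rescaling to 1000000, quantile normalization, the series term and the first series alone, to 1 with a pseudocount of 0.1, no filter, without the shallow libraries and without the libraries under 5000 genes, and to 5 with array quality weights. Without 1 library each the count ran from 0 to 5, and Fgfrl1 lost its call in 18 of 36 such fits. In C against Neg, 6 became 1 after either rescaling and 2 after quantile normalization or without the libraries under 5000 genes (5 to 6 without 1 library each). In C against E, 5 became 1 after either rescaling or quantile normalization, 3 without the libraries under 5000 genes and 0 with the series term (4 to 5 without 1 library each). In C against D, 1 became 0 in 9 of 11 other settings, among them a pseudocount of 0.1, no filter, every rescaling, quantile normalization, the highest transcript and the series term, and 0 to 3 were called without 1 library each. In C against A, 1 was called with array weights; in C against B, 1 was called after quantile normalization and without the libraries under 5000 genes. For bulb against cortex, Fgfr3 alone was called in the first series and without the libraries under 5000 genes (0 to 1 without 1 library each). For bulb against brainstem, Fgfr1 alone was called in the first series, without the shallow libraries, without brainstem D replicate 2 and cortex E replicate 2 together, and without the libraries under 5000 genes (0 to 1 without 1 library each).

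Directions that reversed were these. After rescaling to the median sum, Fgfr2 in C stood at -0.091 against the other lettered populations, -0.049 against B, -0.33 against D and -0.070 against E, and Fgf1 at -0.40 against Neg and -0.80 against E; rescaling to 1000000 gave -0.089, -0.053, -0.33 and -0.068 for Fgfr2 and -0.41 and -0.82 for Fgf1. Quantile normalization gave Fgf1 -0.29 in C against Neg, -0.54 against E and -0.052 in bulb against cortex, and Fgfr2 -0.13 against D. With the transcript of highest mean alone, Fgfr2 in C stood at -1.04 against the other lettered populations, -0.85 against A, -0.52 against B, -1.83 against D and -0.94 against E, and Fgfr1 at -0.29 against A and -0.26 against B. The same setting gave 0.86 for Fgfr2, 0.067 for Fgfrl1 and -0.013 for Fgf1 in bulb against cortex, and 0.30 for Fgfrl1 in bulb against brainstem. With the series term, Fgf2 in C against D stood at -0.69, Fgf1 against E at -0.0058, Fgf1 in bulb against cortex at -0.059, Fgf2 in bulb against brainstem at -0.029 and Fgfrl1 in cortex against brainstem at -0.058. In the first series alone, Fgf2 stood at -0.21 in bulb against cortex, -0.21 in bulb against brainstem and 0.0087 in cortex against brainstem, and Fgfrl1 at -0.13 in the last pair. Without the shallow libraries Fgfrl1 stood at 0.084 in bulb against cortex and 0.21 in bulb against brainstem, the latter at 0.0063 with a pseudocount of 0.1. Without the libraries under 5000 genes Fgf1 stood at -0.21 in bulb against cortex and 0.084 in cortex against brainstem.

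Without 1 library each, or without brainstem D replicate 2 and cortex E replicate 2 together, in C against B Fgfr1 ran from -0.013 to 0.30, Fgfr2 from -0.11 to 0.19 and Fgfrl1 from -0.043 to 0.47. In bulb against cortex Fgfrl1 ran from -0.23 to 0.17 and Fgf1 from -0.32 to 0.34, in bulb against brainstem Fgfrl1 from -0.21 to 0.16, and in cortex against brainstem Fgfr3 from -0.23 to 0.60, Fgfrl1 from -0.20 to 0.26 and Fgf2 from -0.51 to 0.084. None of these reversed values was called.

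Of the ratios, Fgfr3 to Fgfr1 in bulb against brainstem (-2.35 to -1.40 without 1 library each) was -2.16 and no longer called with the highest transcript; in bulb against cortex (-1.55 to -0.85) it was called with a pseudocount of 1 (-1.20) and in the first series (-1.86). Fgfr2 to Fgfr1 in bulb against cortex ran from -1.29 to -0.80 and reversed to 0.35 with the highest transcript. In bulb against brainstem it ran from -1.72 to -0.45, was called in the first series (-1.27) and without the shallow libraries (-1.71), and reversed to 0.48 with the highest transcript. In cortex against brainstem it ran from -0.67 to 0.60 and reversed to 0.14 with the highest transcript and 0.20 with a pseudocount of 1. The cause of these changes was not tested. Of the 5 genes nearest each member, 1 for Fgfr1, 2 for Fgfrl1 and 3 for each of the others were shared with the ranking on deposited FPKM. The depth in fragments is unknown, and Fgf2, Fgfrl1 and Fgfr1 were listed at 0 in some libraries.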
